A study of Mus musculus with 2 samples.

Results

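The insulin-like growth factor (IGF) system was described across the cell types of mouse lungs at postnatal day 10, in single-cell RNA-seq of 1 mutant and 1 control library. Its 10 genes were taken by symbol from the 27998 genes of the count tables, and each symbol occurred once: the ligands Igf1 and Igf2, the receptors Igf1r and Igf2r, and the binding protein genes Igfbp2, Igfbp3, Igfbp4, Igfbp5, Igfbp6 and Igfbp7. The rule that lists them uses no measured value. The mutant library is labelled Nkx2-1;Aqp5 and the control library is labelled control and Nkx2-1, with no alleles given for either. The study asked what loss of Nkx2-1, a homeobox transcription factor gene that lung epithelial cells use, does in alveolar type 1 (AT1) cells, in which Aqp5 is active. Both libraries held epithelial, immune, endothelial and mesenchymal cells purified by FACS, and how many animals each came from is not given in the labels. With 1 library per group no test between the groups was possible, and genotype, animal, sort and library cannot be told apart.

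IGF1 and IGF2 are secreted growth factors that signal through IGF1R, a receptor tyrosine kinase that acts through PI3 kinase and AKT. IGF2R, which is also the cation-independent mannose 6-phosphate receptor, takes up IGF2 and delivers it to lysosomes, so it lowers the ligand available to IGF1R. IGF binding proteins hold the ligands in tissue fluid, and proteases that cut them release the ligands again. In the lung IGF1 is made mainly by mesenchymal cells, and Igfbp2 is known as a marker of mature AT1 cells, the flat cells through which gas is exchanged.

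After filtering, 4262 mutant and 4004 control cells were used, with median depths per barcode of 8305 and 5943 unique molecular identifiers (UMIs) before filtering. Cells were clustered without the 10 genes among the variable genes. The AT1 compartment was made of all epithelial cells outside the AT2-like, club-like and ciliated-like clusters, and held 2241 mutant and 579 control cells. The name AT1 does not hold for most of its mutant cells: 175 of the mutant and 575 of the control cells lay in AT1-like clusters, and 10 AT1 marker genes summed to 2773 counts per 1000000 UMIs (CPM) in the mutant and 30609 CPM in the control. The other classes were AT2-like cells (214 mutant and 1241 control), airway cells (67 and 133), endothelial cells (487 and 589), mesenchymal cells (1021 and 1090) and immune cells (170 and 324). Nkx2-1 itself, which both labels name, had 13.9 CPM in mutant and 483 CPM in control compartment cells, and 313 CPM in mutant and 347 CPM in control AT2-like cells. Where its 3' tag lies relative to any deleted part of the gene is not stated. The libraries shared 27 barcodes, 19 of them among the cells used.

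The start regions of 3 members are shown because the results turn on them: Igfbp2, with 2 annotated starts, and Igfbp6 had the lowest ratios of mutant over control in the AT1 compartment, and Igf1 had the widest gap in level in the mesenchyme. Sequences are from RefSeq on GRCm38.p6, cover 250 bases before to 50 after each start, and are written 5' to 3' on the gene's strand. Capitals mark TCAAG or its reverse complement CTTGA, the core of published binding sites of NK2-class homeobox factors.
Igfbp2 promoter window, chr1:72824230-72824529, plus strand: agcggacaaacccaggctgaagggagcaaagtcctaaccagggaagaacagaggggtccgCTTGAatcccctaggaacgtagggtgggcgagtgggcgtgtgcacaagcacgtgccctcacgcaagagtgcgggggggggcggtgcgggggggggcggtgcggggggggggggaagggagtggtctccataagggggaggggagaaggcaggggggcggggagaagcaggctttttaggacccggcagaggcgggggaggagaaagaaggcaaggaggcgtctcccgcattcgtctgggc
Igfbp2 promoter window, chr1:72825137-72825436, plus strand: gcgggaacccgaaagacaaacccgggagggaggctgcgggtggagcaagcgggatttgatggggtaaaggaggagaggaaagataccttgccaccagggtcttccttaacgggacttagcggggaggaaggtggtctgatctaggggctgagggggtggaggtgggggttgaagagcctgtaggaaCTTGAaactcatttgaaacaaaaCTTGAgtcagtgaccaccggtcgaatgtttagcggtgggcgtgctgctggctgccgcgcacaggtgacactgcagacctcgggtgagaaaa
Igfbp6 promoter window, chr15:102143936-102144235, plus strand: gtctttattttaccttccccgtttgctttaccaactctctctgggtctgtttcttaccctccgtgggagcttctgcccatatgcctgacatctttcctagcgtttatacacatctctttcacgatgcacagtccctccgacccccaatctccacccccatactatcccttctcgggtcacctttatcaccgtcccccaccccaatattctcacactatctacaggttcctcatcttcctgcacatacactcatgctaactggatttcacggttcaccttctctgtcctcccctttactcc
Igf1 promoter window, chr10:87860861-87861160, plus strand: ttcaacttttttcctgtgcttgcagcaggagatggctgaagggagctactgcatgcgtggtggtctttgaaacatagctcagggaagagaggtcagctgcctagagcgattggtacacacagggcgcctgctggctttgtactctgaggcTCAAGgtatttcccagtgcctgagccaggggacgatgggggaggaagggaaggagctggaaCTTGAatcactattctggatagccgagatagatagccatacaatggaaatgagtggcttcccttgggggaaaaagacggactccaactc
All 10 members matched the table, with 14 start regions. The letters TCAAG or CTTGA occurred in 4 of these 14 regions, which belonged to Igf1, Igf2 and Igfbp2, and in 40.7% of the 32851 start regions of all genes. Both Igfbp2 regions held them, with 1 and 2 matches, while the Igfbp6 region held none. A match describes the letters of this window and is not a bound site, and binding was not measured here. In the mm10 annotation Igfbp2 (chr1:72824503-72852474, plus strand) and Igfbp5 (chr1:72857932-72874884, minus strand) are neighbours whose 3' ends lie 5457 bases apart. Igf2r (chr17:12682406-12769664, minus strand) overlaps the antisense gene Airn, and Igf2 lies on chromosome 7 in the imprinted domain of H19.

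The members differed widely in where they were counted. Of the UMIs of each gene over the 6 classes in the mutant library, the mesenchymal class held 98.0% for Igf1 and 90.4% for Igfbp3, while the AT1 compartment held 95.5% for Igfbp2 and 86.2% for Igfbp7. Such shares depend on class size. The mutant compartment held 31028265 UMIs of all genes, of 47271104 in the library before filtering. The control compartment held 3948476 of 29862980, with 94.8% of the Igfbp2 and 58.4% of the Igfbp7 UMIs. The control mesenchymal class held 96.7% for Igf1 and 94.7% for Igfbp3. All levels below are CPM of the summed UMIs of a class or cell type in a library. Intervals are exact 95% intervals, Poisson for a level and conditional binomial for a ratio of mutant over control, and cover counting error only. A member was counted as measured in a class with at least 20 UMIs over both libraries and as differing when the libraries were at least 2-fold apart. Cell types are ranked among those with at least 50 cells in a library, and smaller types are given with their number of cells.

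**Figure D1:**
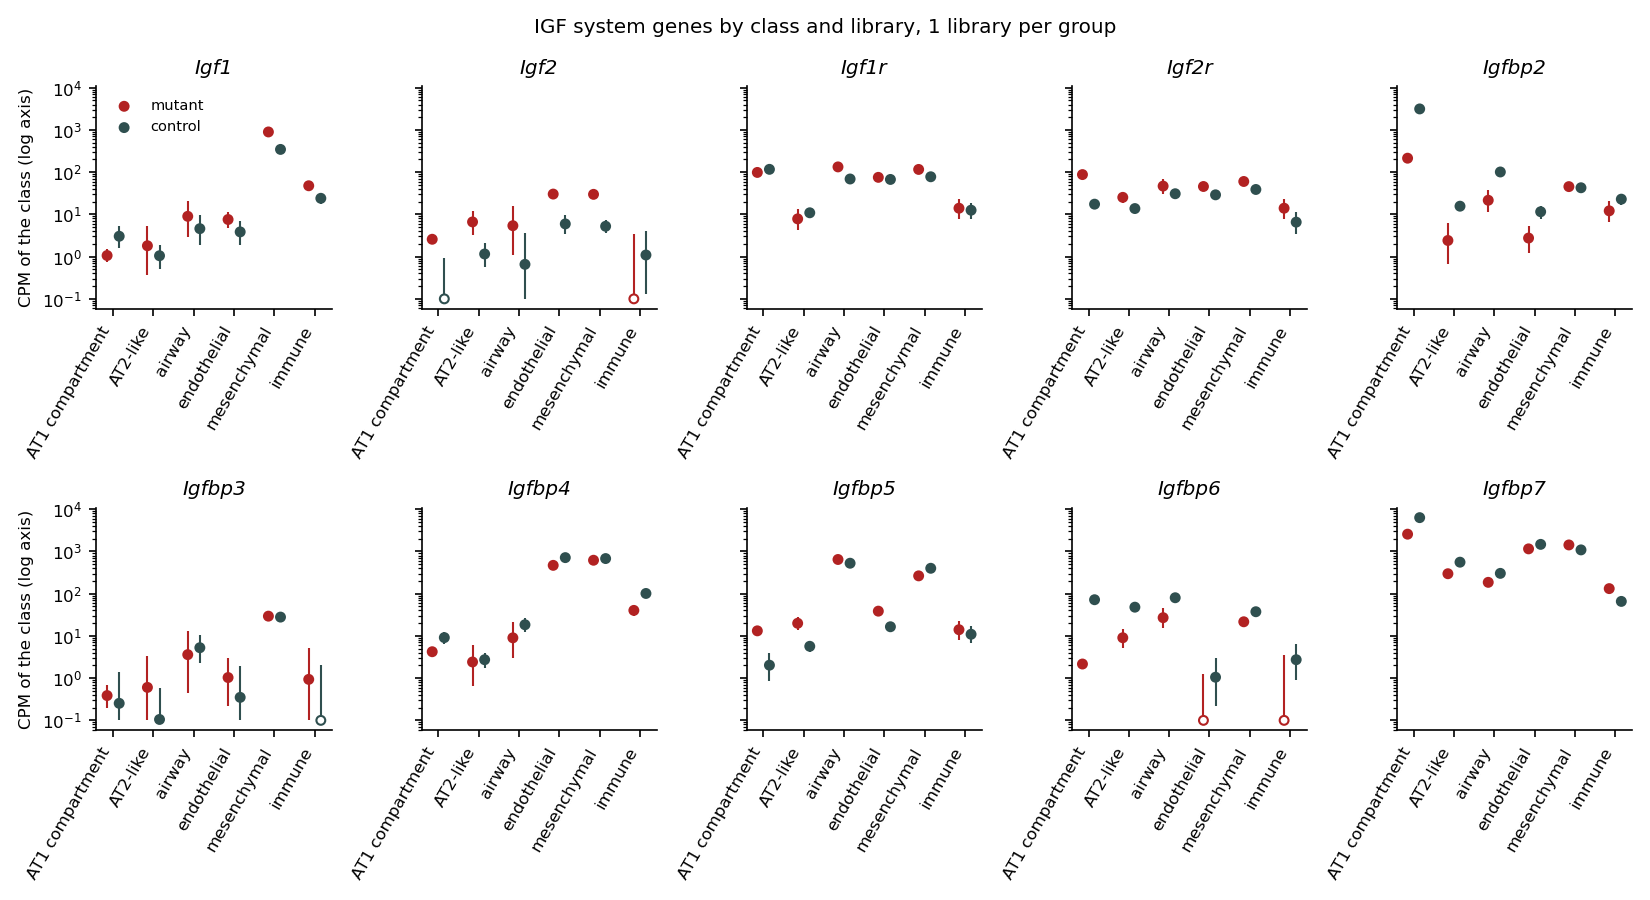
CPM of the 10 IGF system genes in 6 classes (log axis), mutant in red left of control in dark grey; lines are exact Poisson intervals, drawn down to 0.1 CPM, and open circles at 0.1 CPM stand for 0 UMIs. Igf1 is highest in the mesenchymal class of both libraries, and Igfbp2, at 214 CPM in the mutant and 3147 CPM in the control, shows the widest gap in the AT1 compartment among the genes above 100 CPM.

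In the AT1 compartment of the mutant library the binding protein genes Igfbp2, Igfbp6 and Igfbp7 were lower than in the control, and the receptor gene Igf2r and the binding protein gene Igfbp5 were higher. Of 9 measured members 3 were at least 2-fold higher and 5 at least 2-fold lower in the mutant. Over the 12820 genes measured in the compartment 21.8% were at least 2-fold higher and 12.0% at least 2-fold lower, so large differences were common there. The members' median log2 ratio was -1.11, against 0.17 over all genes.

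Igfbp2, whose product binds both ligands, had 214 CPM in mutant and 3147 CPM in control compartment cells, a ratio of 0.0681 (interval 0.0661 to 0.0702). After thinning every cell to 1500 UMIs, 15.7% of mutant cells and 80.7% of control cells held an Igfbp2 UMI, against 34.8% and 88.6% without thinning. In endothelial cells, which should lack the gene, the thinned share was 0.205% in the mutant and 1.36% in the control, at median depths of 5304 and 4383 UMIs. Igfbp6, whose product prefers IGF2, had 2.16 CPM in the mutant and 71.9 CPM in the control, a ratio of 0.0300 (interval 0.0227 to 0.0393). Its thinned share of cells was 0.402% in the mutant and 9.15% in the control. Igfbp7, a secreted protein with low affinity for the ligands, was counted in most cells of both libraries and had 2565 CPM in the mutant and 6319 CPM in the control (ratio 0.406, interval 0.400 to 0.412). Igfbp4, an inhibitory binding protein gene, was near the detection limit in the compartment with 4.22 CPM in the mutant and 9.12 CPM in the control (ratio 0.463, interval 0.318 to 0.690), and mesenchymal markers were at 20.9 and 58.5 CPM there, whose part in this ratio was not tested. Igf1 had 1.06 CPM from 33 UMIs in the mutant and 3.04 CPM from 12 UMIs in the control (ratio 0.350), and free RNA from mesenchymal cells was not told apart from the cells' own at such levels. Igfbp3, the main carrier of the ligands in serum, had 12 UMIs in the mutant and 1 UMI in the control and was not compared.

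The receptor genes did not share a direction in this compartment. Igf1r had 98.6 CPM in mutant and 117 CPM in control cells, a ratio of 0.845 (interval 0.766 to 0.934). Igf2r had 87.7 CPM in the mutant and 17.5 CPM in the control, a ratio of 5.02 (interval 3.95 to 6.47), and 11.8% of thinned mutant cells against 2.94% of thinned control cells held an Igf2r UMI. Airn, the noncoding gene antisense to Igf2r, had 42.0 CPM in the mutant and 29.6 CPM in the control, a ratio of 1.42 (interval 1.17 to 1.73). How the counting treated strand is not stated, so reads of the overlapping pair may not be fully separated. Igfbp5, which binds matrix as well as the ligands, had 13.2 CPM from 409 UMIs in the mutant and 2.03 CPM from 8 UMIs in the control (ratio 6.51, interval 3.27 to 15.2). Igf2 had 80 UMIs in the mutant, or 2.58 CPM, and no UMI among 3948476 in the control. Taking 3 counts as the limit that a count of 0 allows, the control level was up to 0.760 CPM and Igf2 was at least 3.39-fold higher in the mutant. Both ratios rest on few control UMIs, and only 0.312% of thinned mutant compartment cells held an Igf2 UMI. H19, the noncoding gene that shares the imprinted domain of Igf2, had 74.6 CPM in the mutant and 1.01 CPM from 4 UMIs in the control (ratio 73.6, interval 28.7 to 270).

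**Figure D2:**
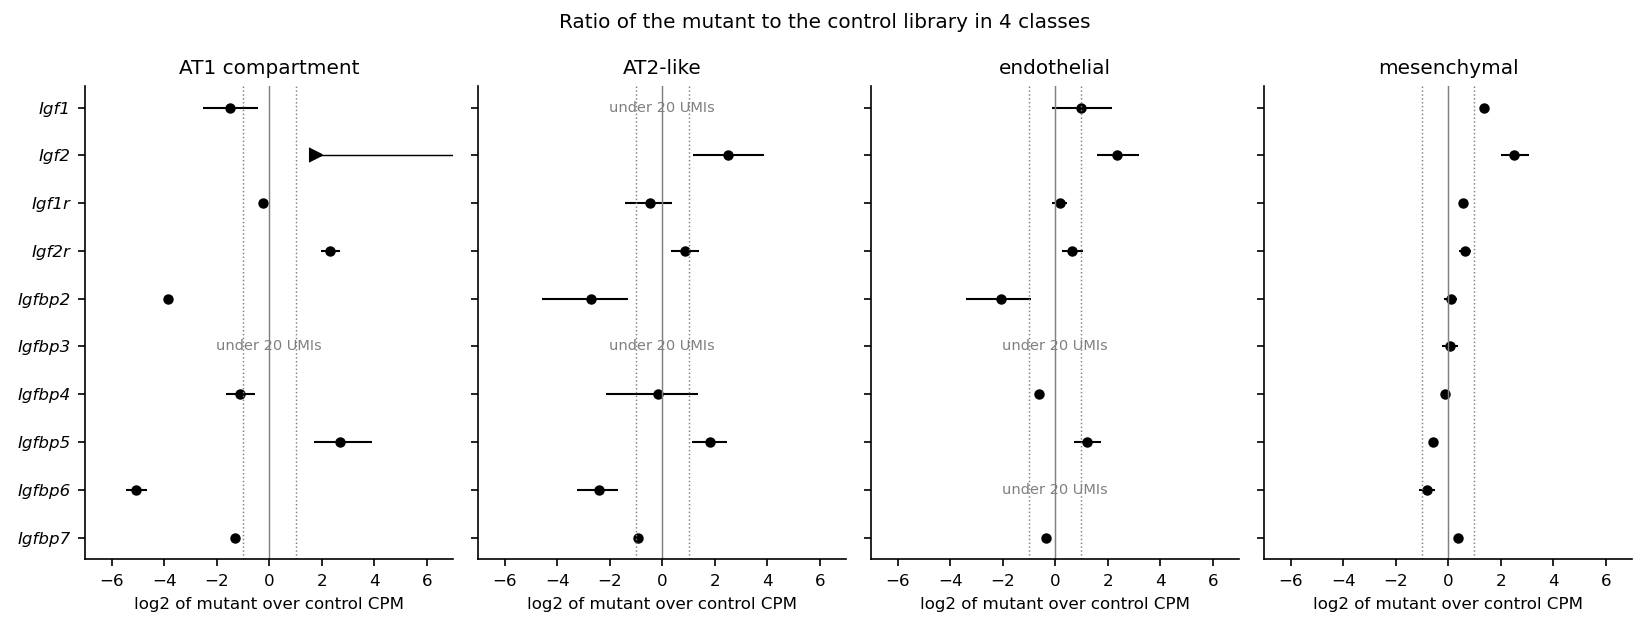
Log2 ratio of mutant over control CPM for the 10 genes in 4 classes, with exact conditional binomial intervals; dotted lines mark 2-fold and the arrowhead is the lower bound for Igf2, which had no control UMI in the AT1 compartment. Igfbp2 and Igfbp6 lie left of the 2-fold line in the AT1 compartment and in AT2-like cells, while Igf2 lies right of it in all 4 classes shown.

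The compartment was not uniform, and its members' levels followed its clusters. Control cells lay in the AT1-like clusters 4 (511 cells) and 10 (64 cells), apart from 4 cells in cluster 8. Those 4 cells held 10 of the 36 control Igfbp4 UMIs, 2 of the 12 Igf1 UMIs and 2 of the 8 Igfbp5 UMIs of the compartment. Mutant cells lay in cluster 1 (682 cells, led by Clu, Spp1 and trefoil factor genes), cluster 5 (458), cluster 6 (392 cells), cluster 8 (266), the cycling cluster 9 (268) and the AT1-like cluster 10 (172). Cluster 4 held 3 mutant cells. Nkx2-1 had between 2.21 and 3.06 CPM in mutant clusters 1, 5, 8 and 9, 13.2 CPM in cluster 6 and 189 CPM in mutant cells of cluster 10, against 488 CPM in control cells of cluster 10. The AT1 marker Ager had 18.8 CPM in cluster 1, 60.9 CPM in cluster 5 and 4511 CPM in cluster 6.

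Igfbp2 had 5.17 CPM in cluster 1, 58.2 CPM in cluster 5, 174 CPM in cluster 8, 192 CPM in cluster 9 and 896 CPM in cluster 6, in the same order as Ager. The order did not extend to mutant cells of cluster 10, which had the highest mutant Ager level, 10340 CPM, and 450 CPM of Igfbp2. Igfbp7 was lowest in cluster 1 with 1091 CPM and highest in cluster 6 with 6500 CPM, against 6829 CPM in control cluster 4. Igf1r was lowest in cluster 8 with 44.5 CPM and highest in clusters 5 and 6 with 160 and 148 CPM, whose intervals overlap. Igf2r was highest in cluster 5 with 143 CPM, ahead of 84.6 CPM in cluster 1, and Airn was also highest in cluster 5 with 63.9 CPM. Igfbp5 was highest in cluster 1 with 26.5 CPM, against between 3.97 and 7.55 CPM in the other mutant clusters. H19 was concentrated in the same cluster, with 164 CPM in cluster 1 and 2.65 CPM in cluster 6.

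Cluster 10 was the only compartment cluster with at least 50 cells of each library, and there the direction of Igfbp2 was the opposite of that of the whole compartment. It had 450 CPM in the 172 mutant cells and 136 CPM in the 64 control cells, a ratio of 3.30 (interval 2.57 to 4.31). Control cells of cluster 4, which held 511 of the 575 control AT1-like cells, had 3597 CPM. Cluster 10 held 172 of the 175 mutant AT1-like cells. Over all AT1-like cells Igfbp2 had 461 CPM in mutant and 3164 CPM in control cells, a ratio of 0.146 (interval 0.135 to 0.157). Igfbp2 was thus lower in the mutant there, as in the whole compartment. In cluster 10 Igfbp6 stayed lower in the mutant, with 24.9 CPM against 165 CPM (ratio 0.151, interval 0.100 to 0.224), and Igfbp7 had 3016 CPM in the mutant and 3014 CPM in the control (ratio 1.00, interval 0.944 to 1.06). Igf1r had 102 CPM in mutant and 36.6 CPM in control cells of cluster 10 (ratio 2.78, interval 1.71 to 4.82), and Igf2r had 33.1 CPM from 52 UMIs against 6.11 CPM from 3 UMIs. Over all AT1-like cells Igf2r had 33.9 CPM from 54 UMIs in the mutant and 17.6 CPM from 69 UMIs in the control. That ratio was 1.93 (interval 1.33 to 2.80), under 2-fold.

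**Figure D3:**
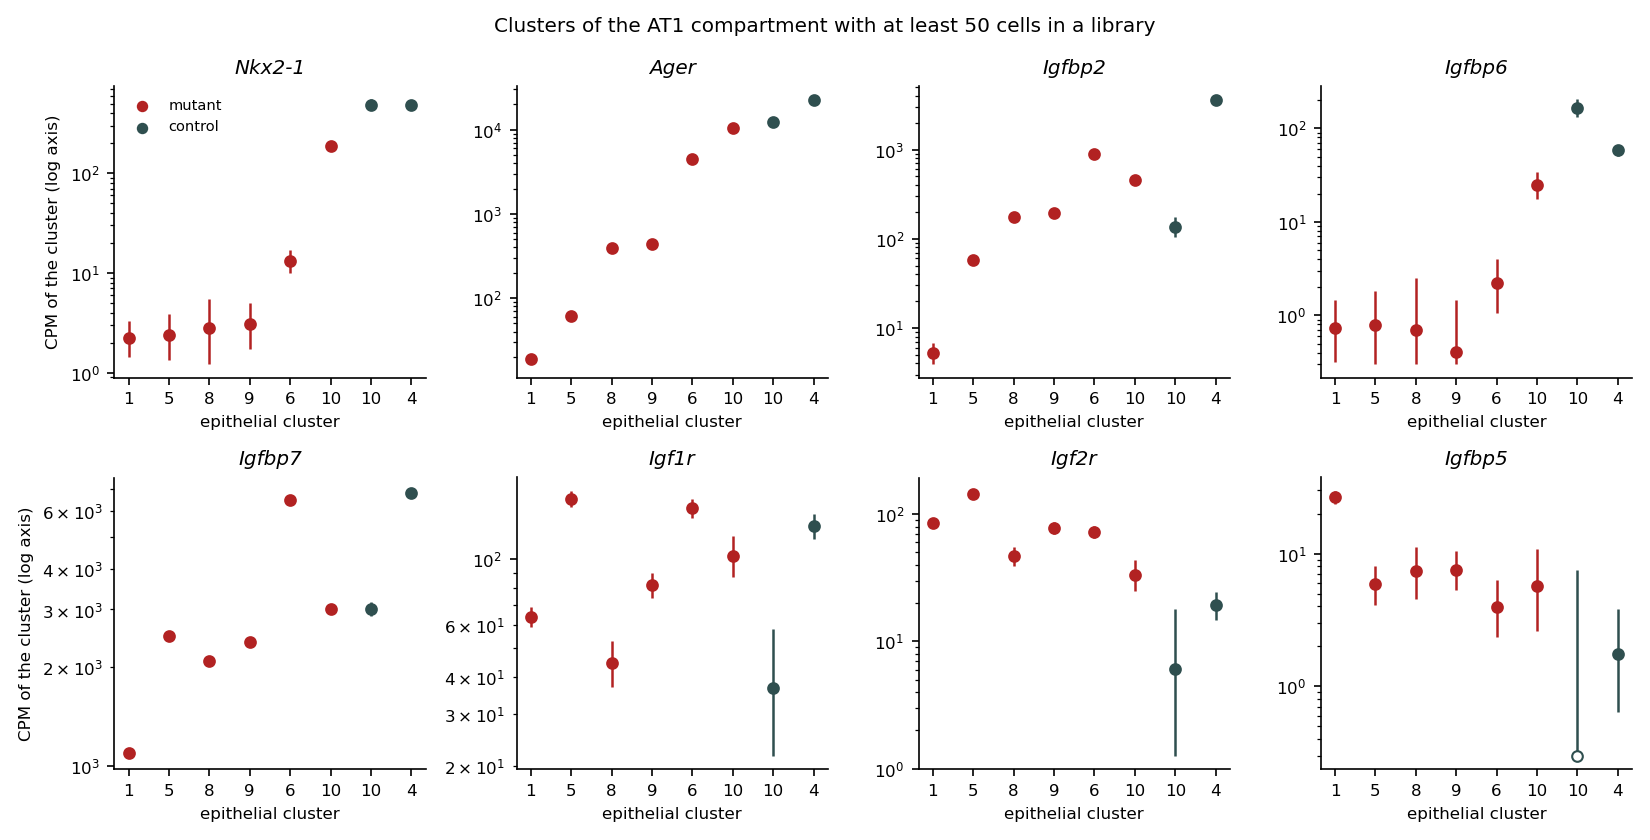
CPM (log axis) of Nkx2-1, Ager and 6 IGF system genes in the clusters of the AT1 compartment with at least 50 cells in a library, mutant in red and control in dark grey, with exact Poisson intervals; the open circle marks 0 UMIs. Cluster 10 appears for both libraries, with Igfbp2 at 450 CPM in the mutant and 136 CPM in the control.

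Single compartment cells were split by their Ager UMIs after thinning. Igfbp2 was seen in 5.15% of the 1555 mutant cells without an Ager UMI, 34.5% of the 319 with 1 to 4, 36.7% of the 221 with 5 to 14 and 54.8% of the 146 with 15 or more. Among control cells it was seen in 35.8% of the 53 with 5 to 14 Ager UMIs and in 86.0% of the 521 with 15 or more. At 5 to 14 Ager UMIs the intervals of the libraries overlapped, and at 15 or more the mutant share (interval 46.4 to 63.0%) lay below the control share (82.7 to 88.8%). The last bin has no upper limit, so the libraries were not matched on Ager within it. Ager had 10420 CPM in mutant and 21510 CPM in control AT1-like cells, and its part in this gap was not tested. Igf2r ran the other way among mutant cells, with 13.4% of cells without an Ager UMI and 3.42% of those with 15 or more, where the control share was 3.26%.

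**Figure D4:**
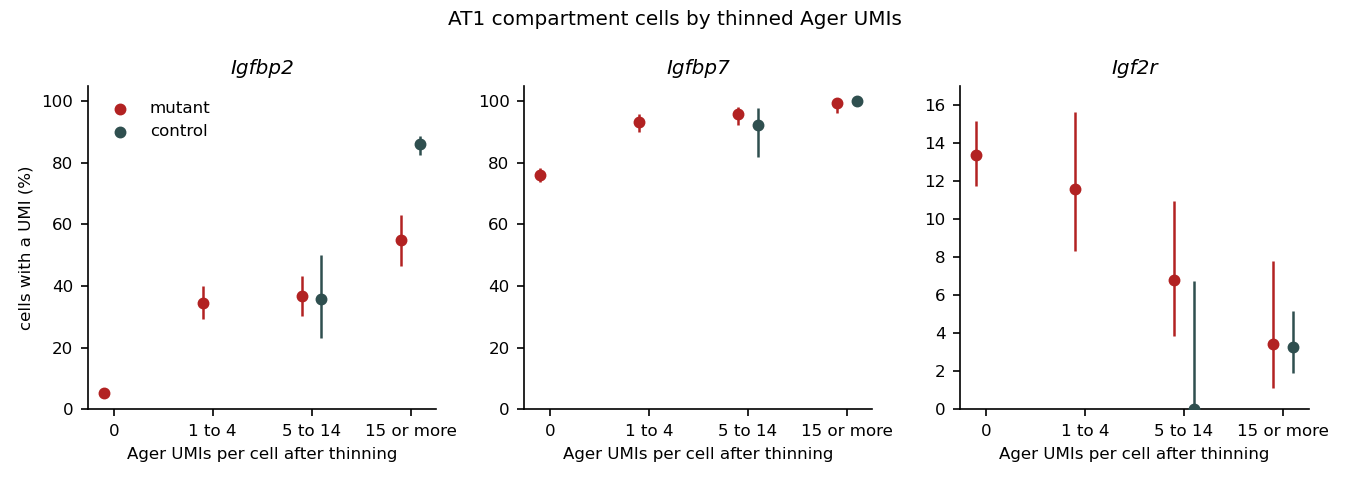
Share of AT1 compartment cells with a UMI of Igfbp2, Igfbp7 or Igf2r after thinning to 1500 UMIs, by the cell's thinned Ager UMIs, mutant in red and control in dark grey, with exact binomial intervals; bins under 50 cells are not drawn. Igfbp2 climbs with Ager in the mutant while Igf2r declines.

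In AT2-like cells, which make surfactant, the members were at low levels and the libraries differed as they did in the compartment for several of them. Of 8 measured members 2 were at least 2-fold higher and 2 at least 2-fold lower in the mutant, against 7.39% and 5.07% of the 10543 genes measured. Igfbp6 had 9.05 CPM in the mutant and 47.9 CPM in the control (ratio 0.189, interval 0.105 to 0.315). Igfbp2 had 2.41 CPM from 4 UMIs and 15.7 CPM from 149 UMIs. Igfbp5 had 19.9 CPM in the mutant and 5.67 CPM in the control (ratio 3.51, interval 2.20 to 5.51), and Igf2 had 11 UMIs in each library, or 6.64 and 1.16 CPM. Mutant AT2-like cells came mostly from cluster 7 (191 cells), which held 84 control cells, while control cells came mostly from clusters 2 and 3. Within cluster 7 Igfbp6 had 8.06 CPM in the mutant and 23.8 CPM in the control (ratio 0.338, interval 0.151 to 0.727), and Igfbp2 had 4 UMIs against 15. The 2 higher members had intervals that include 1 within cluster 7. The ratio was 2.01 for Igfbp5 (interval 0.935 to 4.78). For Igf2 it was 2.82 from 10 and 2 UMIs (interval 0.601 to 26.5).

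In the small airway class none of 7 measured members was at least 2-fold higher and 3 were at least 2-fold lower in the mutant, against 9.67% and 6.04% of genes. Endothelial lineage markers summed to 155 CPM in the mutant and 42.7 CPM in the control there, and their part in these ratios was not tested. The lower members were Igfbp2 (21.6 CPM in the mutant and 101 CPM in the control), Igfbp6 (27.0 and 80.1 CPM) and Igfbp4 (9.01 and 18.4 CPM). Igfbp4 turned to a log2 ratio of 0.14 when free RNA, estimated at 12.1% of mutant and 5.31% of control airway UMIs, was subtracted. Igfbp5 was highest among epithelial cells here, with 645 CPM in the mutant and 526 CPM in the control, and its control level was 1123 CPM in ciliated-like cells. Igf1r had 133 CPM in the mutant and 69.0 CPM in the control, a ratio of 1.93 (interval 1.42 to 2.63).

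Free RNA can carry AT1 transcripts into other cells, so Igfbp2 was set beside Ager in each class. There were 16.3 Igfbp2 UMIs per 100 Ager UMIs in the mutant compartment and 14.7 in the control compartment. In endothelial cells there were 14.8 per 100 in the mutant and 8.59 in the control, and Igfbp2 itself had 2.75 and 11.6 CPM there. In immune cells there were 20.3 per 100 in the mutant and 12.2 in the control, in airway cells 6.67 and 11.8, and in AT2-like cells, which have Ager UMIs of 1286 and 1984 CPM, 0.188 and 0.789. In mesenchymal cells there were 170 per 100 in the mutant and 44.5 in the control, above both compartment values, and Igfbp2 had 45.5 and 42.8 CPM, with 73.3 CPM in mutant and 39.8 CPM in control alveolar myofibroblast-like cells.

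In the mesenchyme both ligand genes were higher in the mutant library. All 10 members were measured there, 2 of them at least 2-fold higher and none at least 2-fold lower in the mutant, against 6.69% and 2.35% of the 12147 genes measured. Igf1 had 897 CPM in the mutant and 346 CPM in the control, a ratio of 2.59 (interval 2.47 to 2.72), and 52.9% of thinned mutant cells against 32.0% of thinned control cells held an Igf1 UMI. In AT2-like cells, which should lack Igf1, the thinned share was 0% in the mutant and 0.483% in the control, at median depths of 7152 and 7316 UMIs. Igf2 had 29.9 CPM in the mutant and 5.24 CPM in the control (ratio 5.70, interval 3.98 to 8.35).

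Igf1 was highest in alveolar myofibroblast-like cells, the Pdgfra-positive contractile cells of the growing alveolar walls, in both libraries. It had 1538 CPM in the mutant and 468 CPM in the control there (ratio 3.29, interval 3.12 to 3.46), seen in 82.9% and 46.1% of thinned cells. Alveolar fibroblast-like cells had 268 CPM in the mutant and 174 CPM in the control (ratio 1.54, interval 1.25 to 1.89). Some smaller types lay between these in the mutant: adventitial fibroblast-like cells had 724 CPM in 43 mutant cells and 304 CPM in 51 control cells, cycling mesenchymal cells 721 CPM in 35 and 299 CPM in 32 cells, and smooth muscle-like cells 579 CPM in 19 and 195 CPM in 18 cells. Pericyte-like cells had 12 and 1 Igf1 UMIs. In the mutant nearly all myofibroblast-like cells outside cluster 6 lay in cluster 1 (375 cells, 1494 CPM), and in the control they lay in clusters 3 (316 cells, 609 CPM) and 4 (245 cells, 331 CPM). Cluster 6 held 122 mutant and 63 control cells, and within it Igf1 had 1758 CPM in the mutant and 485 CPM in the control, a ratio of 3.63 (interval 3.10 to 4.26), so the ratio was as large inside a cluster that both libraries share.

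The highest Igf2 levels of the mutant library lay in small groups of cells. The unnamed mesenchymal cluster 9 had 253 CPM from 39 UMIs in 29 mutant cells and 31.6 CPM from 7 UMIs in 39 control cells. Arterial endothelial-like cells had 229 CPM from 41 UMIs in 27 mutant cells, which is 41 of the 88 Igf2 UMIs of the mutant endothelial class. Among types with at least 50 cells Igf2 was highest in pericyte-like cells of the mutant, with 54.2 CPM against 16.2 CPM in the control (ratio 3.34, interval 1.52 to 8.09), and mesenchymal cluster 7 had 38.7 CPM in the mutant, whose interval overlaps that of pericyte-like cells. Alveolar myofibroblast-like cells had 18.3 CPM from 54 UMIs in the mutant and 1.16 CPM from 5 UMIs in the control. Within their cluster 6, which both libraries share, Igf2 had 16.7 CPM from 11 UMIs in the mutant and 10.5 CPM from 4 UMIs in the control. The ratio there was 1.58 (interval 0.469 to 6.82), so the gap of the whole type was not seen in that cluster. In control adventitial fibroblast-like cells it had 33.5 CPM. Igf2 counts were low: no type with at least 50 cells had a UMI in more than 4.65% of thinned cells, while 27.6% of the 29 mutant cells of mesenchymal cluster 9 and 14.8% of the 27 mutant arterial endothelial-like cells did. H19 had 46.8 CPM in mutant and 4.42 CPM in control alveolar myofibroblast-like cells, but 70.9 CPM in mutant and 103 CPM in control pericyte-like cells.

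The receptor genes differed less over the whole mesenchymal class. Igf1r had 116 CPM in the mutant and 77.9 CPM in the control (ratio 1.49, interval 1.33 to 1.67), and Igf2r had 60.2 and 38.9 CPM (ratio 1.55, interval 1.32 to 1.82). Igf1r was highest in alveolar fibroblast-like cells, with 182 CPM in the mutant and 168 CPM in the control, followed by mesenchymal cluster 7 with overlapping intervals. Igf2r was highest in pericyte-like cells of both libraries, with 156 CPM in the mutant and 134 CPM in the control (ratio 1.17, interval 0.838 to 1.64). In alveolar myofibroblast-like cells the ratios were 1.56 for Igf1r and 1.85 for Igf2r. Within their shared cluster 6 both were past 2-fold. Igf1r had 132 CPM in the mutant and 50.1 CPM in the control there (ratio 2.64, interval 1.59 to 4.59). Igf2r had 21 and 4 UMIs (ratio 3.02, interval 1.02 to 12.1).

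The binding protein genes marked different mesenchymal cells. Igfbp3 and Igfbp6 were led by adventitial fibroblast-like cells, with 276 and 331 CPM in 43 mutant cells and 298 and 597 CPM in 51 control cells, and the next mesenchymal type, alveolar fibroblast-like cells, had 36.5 CPM of Igfbp3 in the mutant and 46.5 CPM in the control. Igfbp4 was also highest in control adventitial fibroblast-like cells, with 2910 CPM, followed by control arterial endothelial-like cells with 2513 CPM. In alveolar fibroblast-like cells it had 1355 CPM in the mutant and 1636 CPM in the control (ratio 0.828, interval 0.770 to 0.892). Igfbp5 was highest in mesenchymal cluster 7, which is led by Grp and has no name, with 777 CPM in the mutant and 1368 CPM in the control (ratio 0.568, interval 0.494 to 0.652). Over the whole mesenchymal class Igfbp5 had 264 CPM in the mutant and 399 CPM in the control (ratio 0.662, interval 0.622 to 0.704), and Igfbp6 had 21.6 and 37.4 CPM (ratio 0.578, interval 0.465 to 0.716). Igfbp7 had 1426 CPM in the mutant and 1088 CPM in the control (ratio 1.31, interval 1.27 to 1.35). By cell type the Igfbp7 ratio was 1.75 in pericyte-like cells, 1.28 in mesenchymal cluster 7, 1.27 in alveolar myofibroblast-like cells and 0.977 (interval 0.917 to 1.04) in alveolar fibroblast-like cells.

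**Figure D5:**
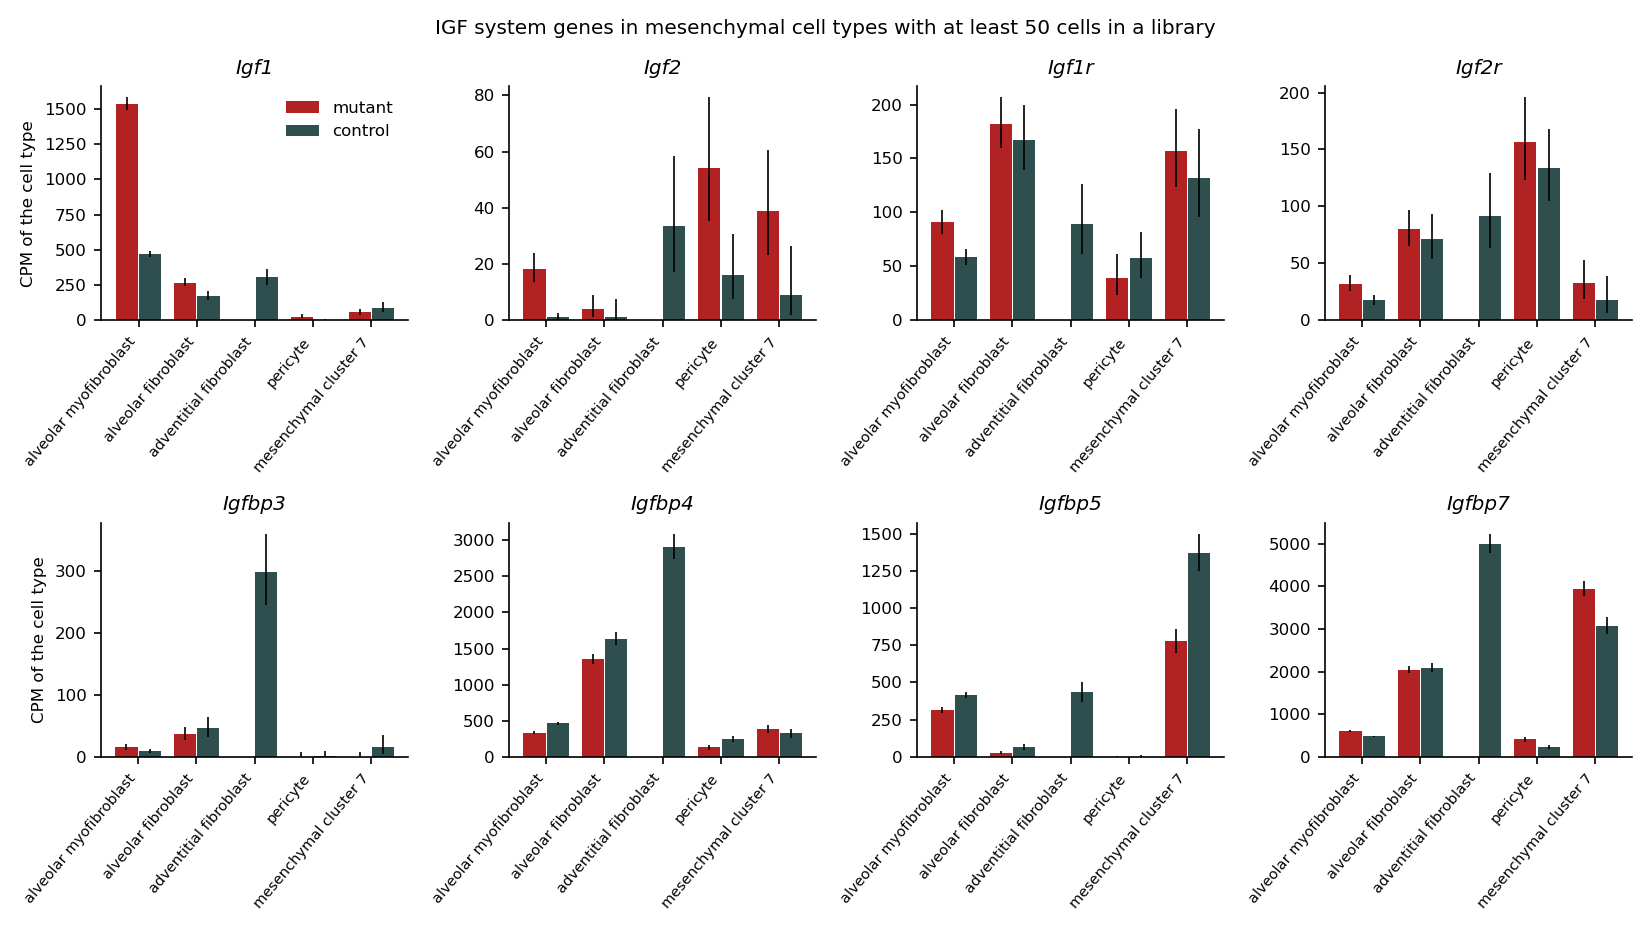
CPM of 8 IGF system genes in mesenchymal cell types with at least 50 cells in a library, mutant bars left of control bars, with exact Poisson intervals; the mutant adventitial fibroblast-like cells, 43 in number, are not drawn. Igf1 stands at 1538 CPM in mutant and 468 CPM in control alveolar myofibroblast-like cells.

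In endothelial cells 2 of 8 measured members were at least 2-fold higher and 1 at least 2-fold lower in the mutant, against 7.28% and 1.97% of the 10390 genes measured. Igf2 had 30.3 CPM from 88 UMIs in the mutant and 5.96 CPM from 17 UMIs in the control (ratio 5.09, interval 3.0 to 9.1). Besides arterial endothelial-like cells, unnamed endothelial cells held 34 of the mutant Igf2 UMIs, against 2 in the control (ratio 18.2, interval 4.67 to 157). Igfbp5 had 38.6 CPM in the mutant and 16.5 CPM in the control (ratio 2.34, interval 1.65 to 3.37), and the lower member was Igfbp2, described above beside Ager. Of the 112 mutant Igfbp5 UMIs 66 lay in 36 venous endothelial-like cells, with 339 CPM against 70.1 CPM in 28 control cells. In unnamed endothelial cells the Igfbp5 ratio was 1.41 (interval 0.746 to 2.71). Igfbp4 had 469 CPM in the mutant and 714 CPM in the control (ratio 0.656, interval 0.612 to 0.703). Over the class Igfbp7 had 1151 CPM in the mutant and 1471 CPM in the control (ratio 0.782, interval 0.747 to 0.819). Igfbp7 was highest in the Car4-high capillary-like cells, which face AT1 cells across the gas exchange surface, with 4535 CPM in 72 mutant cells and 6424 CPM in 86 control cells (ratio 0.706, interval 0.668 to 0.747). In the control this level did not differ from the 6352 CPM of AT1-like cells beyond counting error. Igf1r had 75.4 and 67.3 CPM in the class (ratio 1.12, interval 0.919 to 1.37). The unnamed endothelial clusters divided by library: cluster 2 held 259 mutant and 7 control cells, and cluster 1 held 4 mutant and 351 control cells. Immune lineage markers summed to 127 CPM in mutant and 7.36 CPM in control endothelial cells, and their part in these ratios was not tested.

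Immune cells held few UMIs of any member. Of 7 measured members 2 were at least 2-fold higher and 1 at least 2-fold lower in the mutant, against 7.84% and 6.24% of genes. Igf1, which macrophages can make, had 47.7 CPM from 51 UMIs in the mutant and 24.1 CPM from 44 UMIs in the control (ratio 1.98, interval 1.30 to 3.04). The makeup of the class differed, with 45 mutant and 40 control alveolar macrophage-like cells and 32 mutant and 140 control B cell-like cells. In alveolar macrophage-like cells alone Igf1 had 61.7 CPM from 15 UMIs in the mutant and 55.7 CPM from 12 UMIs in the control. B cell-like cells had 95.4 CPM from 19 UMIs, in 12.5% of the cells, in the mutant and 1 UMI in the control. Monocyte-like cells had 0 Igf1 UMIs in 31 mutant cells and 14 in 41 control cells. Igfbp7 had 132 CPM in the mutant and 65.6 CPM in the control, and Igf2r had 15 and 12 UMIs (ratio 2.14, interval 0.934 to 5.0), both near the 2-fold line. Both turned to lower in the mutant when free RNA, estimated at 16.4% of mutant and 2.56% of control immune UMIs, was subtracted, with log2 ratios of -3.13 for Igfbp7 and -1.09 for Igf2r. The thinned share of immune cells with an Igfbp7 UMI was 4.12% in the mutant and 8.64% in the control, with overlapping intervals. Of the 141 mutant Igfbp7 UMIs 90 lay in 31 monocyte-like cells. Igfbp4 had 40.2 CPM in the mutant and 101 CPM in the control, and control T cell-like cells alone had 316 CPM. The class held 21 mutant and 84 control T cell-like cells.

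Of 70 other genes of the IGF pathway in 9 lists, 61 were measured in the AT1 compartment, with 14 at least 2-fold higher and 11 at least 2-fold lower in the mutant, so 41.0% were past 2-fold. Over all genes measured there 21.8% were higher and 12.0% lower, so the list's share is near the background. The median log2 ratio was 0.12, against 0.17 over all genes. Of the 6 measured proteases of the binding proteins and their inhibitors 2 were higher and 2 lower. Htra1, a secreted serine protease that can cut binding proteins, had 22.7 CPM in the mutant and 149 CPM in the control (ratio 0.152, interval 0.136 to 0.170). Plat, the tissue plasminogen activator gene, had 9.15 CPM in the mutant and 1.27 CPM from 5 UMIs in the control (ratio 7.23). The lysosomal protease gene Ctsd had 220 and 202 CPM. Htra3, which carries an IGF binding domain, had 290 UMIs in the mutant and none in the control, at least 12.3-fold higher. Of 20 measured receptor adaptors and kinases 4 were higher and 1 lower, and of 6 growth hormone axis genes 1 was higher and 3 lower. Of 9 imprinted growth genes 3 were higher and 2 lower, with Plagl1, a transcription factor gene of this group, at 112 and 87.1 CPM and Dlk1 at 86 UMIs in the mutant and 1 in the control. The compartment totals were 31028265 UMIs in the mutant and 3948476 in the control. Of 6 mannose 6-phosphate trafficking genes 2 were higher and 1 lower, and M6pr, the small mannose 6-phosphate receptor, had 94.0 CPM in the mutant and 90.7 CPM in the control, unlike Igf2r. Of 8 FoxO effectors and targets 1 was higher and 1 lower, of 3 mRNA binding proteins 1 was lower, and the 1 measured receptor relative was on neither side.

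In mesenchymal cells 60 of the listed genes were measured, 4 of them at least 2-fold higher and 1 lower in the mutant, against 6.69% and 2.35% of all genes, with a median log2 ratio of 0.20 against 0.04 over all genes. The lower gene was Htra1, with 449 CPM in the mutant and 938 CPM in the control (ratio 0.479, interval 0.458 to 0.501). Adamts1, another protease gene, had 233 and 102 CPM (ratio 2.28, interval 2.09 to 2.50). The imprinted genes H19 and Peg3 had 68.8 and 165 CPM in the mutant and 27.5 and 79.0 CPM in the control. Ghr, the growth hormone receptor gene, had 207 CPM in the mutant and 254 CPM in the control, and Socs2, a feedback inhibitor of that receptor, had 561 and 534 CPM. Ctsd had 192 CPM in the mutant and 291 CPM in the control.

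In endothelial cells 53 listed genes were measured, 3 of them higher and 2 lower in the mutant, against 7.28% and 1.97% of all genes. Esm1, an endothelial proteoglycan gene, had 9.64 CPM in the mutant and 62.4 CPM in the control (ratio 0.155, interval 0.0999 to 0.231), while Peg3 had 210 and 92.9 CPM and Plagl1 32.7 and 11.9 CPM. Mest, another imprinted gene, had 503 CPM in the mutant and 360 CPM in the control, Adamts1 had 278 and 160 CPM, and Ctsd had 168 and 211 CPM. In AT2-like cells 53 were measured, 2 higher and 4 lower, against 7.39% and 5.07% of all genes, and the endocytic receptor gene Lrp2 had 106 CPM in the mutant and 27.1 CPM in the control (ratio 3.92, interval 3.22 to 4.76). Socs2 had 167 and 163 CPM there and Dlk1 115 and 97.7 CPM, while Foxo4, Igfals and Trib3 were lower in the mutant with 1, 2 and 3 UMIs against 62, 58 and 72. These counts are out of 1657542 mutant and 9519702 control UMIs of the AT2-like class. In airway cells 6 of 39 were higher and 4 lower, against 9.67% and 6.04% of all genes, with the cell cycle inhibitor gene Cdkn1c at 667 CPM in the mutant and 1582 CPM in the control. In immune cells 4 of 39 were higher and 1 lower, against 7.84% and 6.24% of all genes, with Ctsd at 810 CPM in the mutant and 343 CPM in the control.

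The genes whose pattern was most like each member's were ranked by Pearson correlation of log2(CPM + 10) over 27 profiles, each a cell type with at least 50 cells in a library, among 13045 genes. These profiles share libraries and depth, and the values are a description. For Igf1 the nearest were Adamts8 (r = 0.961), Pdgfra (0.955) and Robo2 (0.954), and for Igfbp3 they were Tnfaip6 (0.959), Sult5a1 (0.940) and Cpz (0.935). Igf2r was nearest to Airn (0.861), followed by Tnks1bp1 (0.860) and Dennd4c (0.803). Igfbp2 was nearest to Plb1 (0.869), Akr1c14 (0.861) and Spock2 (0.859). Igfbp4 was nearest to Emilin1 (0.903), Hoxa3 (0.894) and Abi3bp (0.885), and Igfbp5 to Spsb1 (0.872), Pnck (0.867) and Net1 (0.847). Igf1r was nearest to Spats2l (0.869), Hspg2 (0.819) and Cox6a1 (0.808). The nearest genes were less alike for Igf2 (Evi5l and Plcl1 at 0.794, Filip1 at 0.789), Igfbp6 (Cgref1 at 0.799, Notum at 0.795, C1qtnf3 at 0.794) and Igfbp7 (Ptrf at 0.810, Hspb1 at 0.790, Timp3 at 0.785).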

How the data were processed

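Cells of mouse lungs at postnatal day 10 were captured with the 10x 3' kit (version 2), as the labels' protocols state. The authors deposited raw UMI counts for 27998 genes. The submitters' processing notes name Cell Ranger, Seurat and the build mm10, without versions, annotation release, strand setting or filters. Totals were 47271104 UMIs over 4551 mutant and 29862980 over 4461 control barcodes.

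Kept were the 4418 mutant and 4141 control barcodes that had 500 genes or more and less than 10% mitochondrial UMIs. Doublets were scored per library against simulated doublets, and the 156 mutant (3.53%) and 137 control (3.31%) cells with the highest scores, as many as loading at this scale would give, were removed. Of the simulated doublets 60.1% and 58.6% scored above these thresholds. Counts scaled to 10000 and log transformed gave 2000 variable genes without the members, 30 principal components, 20 neighbours and Leiden clusters at resolution 1, first for lineages and then within each, for both libraries together without integration. A cluster was named X-like from marker genes (mean log2 of at least 1.5, at least 3 markers in at least 10% of cells). A second naming round against the named clusters of a lineage, the split by Ager and the comparison within shared clusters were chosen after seeing the data. Clusters with markers of another lineage (62 mutant and 48 control cells) were set aside. UMIs were summed per class and library, and a count of 0 was set to 3 counts for bounds. The ratio and its interval were tested on simulated data. Named genes are all 10 members and, of each class's pathway genes, the 4 with the highest CPM and the 4 with the largest log2 ratio; for each member the 3 genes of most like pattern are named. A few genes that this rule names are not reported here. The members and lists were chosen with earlier results of these data known. Python 3.11.15, scipy 1.17.1, scikit-learn 1.9.0 and leidenalg 0.10.2 were used. Alternatives covered doublets, separate clustering, cycling cells, averaging over cells, centring on the median gene, free RNA, the class boundary, the UMI minimum and thinning.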

Additional observations from a re-analysis of the deposited data

Results flagged for a closer look

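For 3 members the ratio lay on opposite sides of 1 in different classes, with counting intervals that exclude 1 and at least 1 of the classes past 2-fold. With 1 library per group these differences between classes were not tested. Igf1 was higher in the mutant in mesenchymal cells and lower in the AT1 compartment, a difference in log2 ratio of 2.89, in which the compartment value rests on 33 mutant and 12 control UMIs. Igfbp5 was higher in the AT1 compartment and lower in mesenchymal cells, a difference of 3.30, with 8 control UMIs in the compartment. Igfbp7 was higher in immune cells and lower in the AT1 compartment, a difference of 2.31, with 141 mutant and 120 control UMIs in immune cells. The thinned share of immune cells with an Igfbp7 UMI was lower in the mutant, 4.12% against 8.64%, with overlapping intervals. The immune value of Igfbp7 turned to a log2 ratio of -3.13 after free RNA was subtracted.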

How the results depend on the processing

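No paired analysis was possible because each group has 1 library. Of the 23 member ratios past 2-fold, 167 values were computed under alternatives, of which 17 were under 2-fold, and 9 single-gene values reversed. Igf2, Igfbp2 and Igfbp6 kept their direction in the compartment in every alternative that gave a value, except Igfbp2 within the shared cluster. Counts of members past 2-fold differed by over 1.5 times as follows. In the AT1 compartment (3 higher, 5 lower) there were 0 higher with AT1-like clusters only, 3 lower with all epithelial cells and 1 lower within the cluster that holds at least 50 cells of each library. In AT2-like cells (2 higher) there was 1 with at most 3 cycling UMIs per cell and 0 with a minimum of 100 UMIs. In airway cells (0 higher) there was 1 with each library clustered alone and 1 with a minimum of 1 UMI. In endothelial cells (2 higher, 1 lower) there was 1 higher within shared clusters, and 0 lower there, after subtracting free RNA and with a minimum of 100 UMIs. In immune cells (2 higher, 1 lower) there was 1 higher without cycling cells, by the mean over cells, relative to the median gene and with a minimum of 100 UMIs, and 0 higher and 5 lower after subtracting free RNA, which was estimated at 16.4% of mutant and 2.56% of control immune UMIs.

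Reversed log2 ratios were, in the compartment, Igfbp2 at 1.72 and Igfbp7 at 0.001 within the shared cluster and Igfbp5 at -1.26 and Igfbp7 at 0.24 with all epithelial cells, whose mutant and control cells differ in makeup. Others were Igfbp5 in endothelial cells at -0.15 within the shared cluster, from 1 UMI in each library, Igfbp4 in airway cells at 0.14 after subtracting free RNA, Igfbp7 in immune cells at -3.13 after subtracting it, and Igf2r in immune cells at -0.085 with each library clustered alone and -1.09 after subtracting free RNA. The cause was not tested beyond these settings. Comparison within shared clusters was chosen after seeing the data. Thinned shares of cells in the compartment were lower than unthinned ones in 18 of 20 cases. Thinning can only lower a share or leave it unchanged, so this direction was fixed in advance.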
